A study of Homo sapiens with 6 samples.

Results

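The genes described here are 10 members of the BCL2 family, taken by name in 3 roles: the pro-survival genes BCL2, BCL2L1 and MCL1, the effectors BAX and BAK1, and the BH3-only genes BCL2L11, BBC3, PMAIP1, BID and BIK. Each symbol matched 1 of the 60499 Ensembl gene IDs of the deposited count table, and all 10 were among the 17608 genes expressed well enough to be tested. The cells were H1, a human embryonic stem cell line that is established and widely used. They were kept for 4 days in NutriStem medium, renewed each day, and taken at confluence. Wells were coated with laminin-521 alone (LN-521, 3 wells) or with laminin-521 together with laminin-221 (LN-521+LN-221, 3 wells), and total RNA of each well was sequenced as 1 library. All 6 wells held the same line, without any genetic change or drug named in the labels, so p-values measure the spread between wells of 1 line. In these bulk libraries, fewer cells of a type and less RNA per cell cannot be told apart.

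BCL2 family proteins control the mitochondrial route of apoptosis. The effectors BAX and BAK1 form pores in the outer mitochondrial membrane that let cytochrome c out. Pro-survival members hold the effectors and the BH3-only proteins, while BH3-only proteins bind pro-survival members, and some of them also switch the effectors on. Human pluripotent stem cells are known to be quick to undergo apoptosis when detached or when their DNA is damaged, and laminin-521 is used as a coating that supports their survival.

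Totals per library ran from 20606494 to 26836727 estimated counts. The common biological coefficient of variation was 7.03%. On a principal component analysis of log2 CPM (counts scaled to library size and composition), the first component (27.9% of the variance) separated the coatings, and the second (21.8%) set LN-521 replicate 1, at 33.9, apart from the other 5 libraries, at -15.5 to 3.70. Libraries also differed in how GC-rich transcripts were recovered: the fifth of genes with the highest GC content, minus the fifth with the lowest, deviated by 0.218 on the log2 scale in LN-521 replicate 2 and by -0.122 to 0.021 in the other 5. The stem cell label was checked against 8 pluripotency markers. All 8 were expressed well enough to be tested, with a summed level of 9430 to 9670 CPM on laminin-521 alone and 9470 to 9730 CPM with laminin-221. The sum joins markers that differed in opposite directions, as given below, so its near-equal values do not mean that each marker was unchanged.

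The sequences before the starts of PMAIP1 and BAX are shown because these 2 members had the smallest p-values between the coatings. RefSeq promoter windows (GRCh38.p14) were found for 8 of the 10 members, and MCL1 and BIK had no entry. The 250 bases before each RefSeq start were searched on both strands. In PMAIP1 (chr18:59899746-59899947, plus strand) the capitals mark the GC box GGGCGG or its complement, the kind of sequence that Sp-family factors bind. In BAX (chr19:48954625-48954814, plus strand) they mark the E-box CACGTG, which MYC and related factors bind. Both are printed up to the base before the gene start in GENCODE 29.
PMAIP1: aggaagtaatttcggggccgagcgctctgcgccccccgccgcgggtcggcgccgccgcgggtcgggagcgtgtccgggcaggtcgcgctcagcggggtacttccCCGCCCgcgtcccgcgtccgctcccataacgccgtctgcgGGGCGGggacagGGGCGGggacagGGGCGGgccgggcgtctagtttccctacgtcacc
BAX: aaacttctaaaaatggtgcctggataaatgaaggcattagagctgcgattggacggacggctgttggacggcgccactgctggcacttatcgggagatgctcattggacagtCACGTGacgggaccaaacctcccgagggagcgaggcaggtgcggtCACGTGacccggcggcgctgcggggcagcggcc

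PMAIP1 held 4 GC boxes, and 3 of them followed each other at steps of 12 bases. A GC box was present in 42.6% of the 35116 windows of this length in the table, and 4 or more in 7.63%. This was not particular to PMAIP1 among the members. Some windows of BID also held 4 GC boxes, 3 of them at steps of 10 bases, and BCL2L11 held 3. The BAX window held 4 E-boxes, of which 2 lie past the printed stretch. An E-box was present in 6.34% of windows, and 4 or more in 0.0142%. No capital letter overlaps a match to another motif searched. Those were the CRE (TGACGTCA), the TATA box (TATAAA) and the CCAAT box (CCAAT). These matches describe letters in a window and are no measure of binding.

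Levels of the members were compared per length, as TPM, the authors' length-corrected share of transcripts. PMAIP1 and MCL1 were by far the most abundant. PMAIP1, which encodes NOXA, a BH3-only protein that binds MCL1, was at 113, 91.2 and 114 TPM on laminin-521 alone and at 95.4, 83.2 and 71.8 TPM with laminin-221. MCL1, a short-lived pro-survival protein, was at 107, 88.0 and 92.6 TPM on laminin-521 alone and at 96.8, 95.2 and 91.3 TPM with laminin-221. Each had a mean TPM above 95.6% of all genes tested, and in both coatings their ranges overlapped. Together they made up 65.9% to 70.6% of the TPM summed over the 10 members.

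The next levels were lower. BAX followed at a mean of 36.9 TPM on laminin-521 alone and 28.3 TPM with laminin-221, and BCL2L1, which encodes BCL-XL, at 18.7 and 16.5 TPM. BAX and BCL2L1 each stood clear of both neighbours in the order in both coatings. BID (9.64 and 9.31 TPM) and BAK1 (8.75 and 9.13 TPM) overlapped each other. BBC3, which encodes PUMA, was at 7.68 and 7.36 TPM, BCL2L11, which encodes BIM, at 5.91 and 6.46 TPM, and BIK at 4.14 and 4.62 TPM. BBC3 and BCL2L11 overlapped with laminin-221 only, and BCL2L11 and BIK on LN-521 only. BCL2 itself was lowest, at 0.747 and 0.593 TPM, a level above 14.6% of the genes tested.

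**Figure D1:**
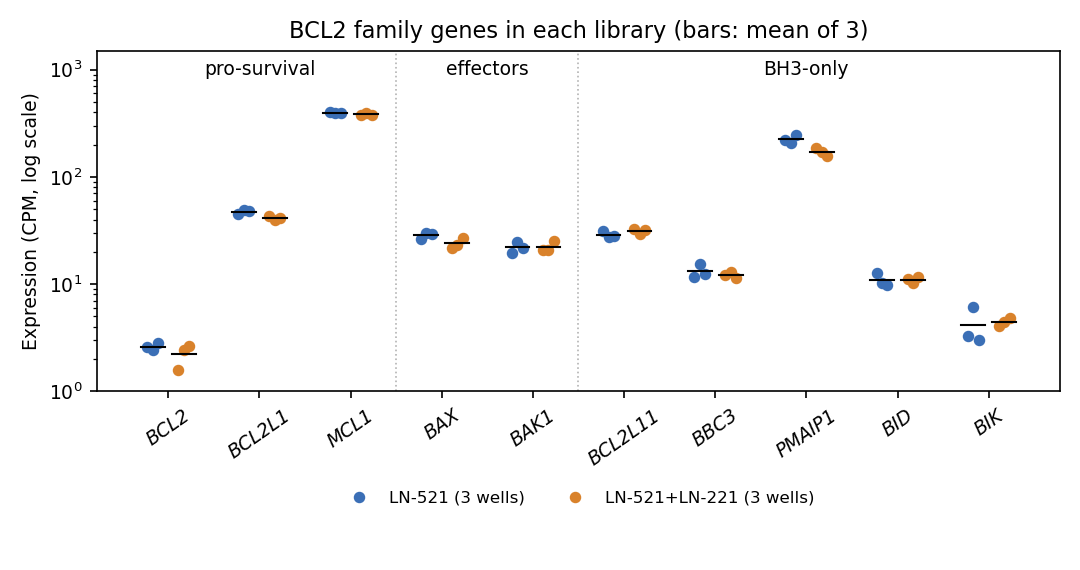
Expression of the 10 members in each library, in CPM (TMM-scaled) on a log axis, grouped by role, with 1 point per well and a bar at the mean of 3. The LN-521+LN-221 points of PMAIP1 (156 to 187 CPM) lie below its LN-521 points (208 to 248 CPM), those of BCL2L1 and MCL1 also do by smaller margins, and BCL2 and BIK are the lowest.

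The main comparison asked which members differ in RNA level when laminin-221 is added to laminin-521. PMAIP1 was lower with laminin-221, and it was the only member of 10 to pass the test. Of all genes tested, 2.53% passed it in either direction and 1.14% were lower (edgeR quasi-likelihood test, Benjamini-Hochberg adjusted p under 0.05 over all genes). A single call among 10 genes is not read here as a result about the family. In the other 9 members the difference did not pass. The median log2 fold change over the 10 members was -0.074, against -0.001 over all genes tested.

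For PMAIP1 (ENSG00000141682, GRCh38 chr18:59899948-59904306, plus strand, protein coding) the counts were 5079, 5526 and 6182 on laminin-521 alone and 3882, 3812 and 3689 with laminin-221. In CPM these were 221, 208 and 248 against 187, 171 and 156. Every well on LN-521 was above every well with laminin-221. The means were 226 ± 20.5 and 171 ± 15.6 CPM (SD, n = 3 each), with a log2 difference of -0.40 ± 0.07 (SE; 95% interval -0.55 to -0.25; edgeR adjusted p = 0.00494). PMAIP1 thus fell to 0.759 of its LN-521 level. By p-value it stood at place 169 among the genes tested. In TPM the coatings overlapped, since LN-521 replicate 2 (91.2 TPM) was below LN-521+LN-221 replicate 1 (95.4 TPM).

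PMAIP1 was negative in all 18 other settings tried, from -0.46 to -0.33, but it lost the threshold in 6 of them. The adjusted p was 0.0699 without LN-521 replicate 1, the library that stood apart, and 0.0542 without LN-521 replicate 3. With limma on the authors' TPM it was 0.560 for log2(TPM + 1) and 0.612 for log2(TPM + 0.1). With TPM rescaled and a variance trend it was 0.120. The replicate block left the call in place (edgeR adjusted p = 4.93e-04), whereas the GC correction with the block did not (-0.45, edgeR adjusted p = 0.0787). The PMAIP1 transcript has the lowest GC content of the 10 members, at 37.2%, and with the GC correction alone its difference was as large (-0.45, edgeR adjusted p = 0.00340). Settings differ in how many genes they call at all. The share of all tested genes called was 6.54% without LN-521 replicate 1 and 1.13% without LN-521 replicate 3. It was 0.229% with log2(TPM + 1), 0.111% with log2(TPM + 0.1) and 0.749% with rescaled TPM. It was 5.77% with the GC correction and block, 5.28% with the GC correction, 3.67% with the block and 2.99% with DESeq2.

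**Figure D2:**
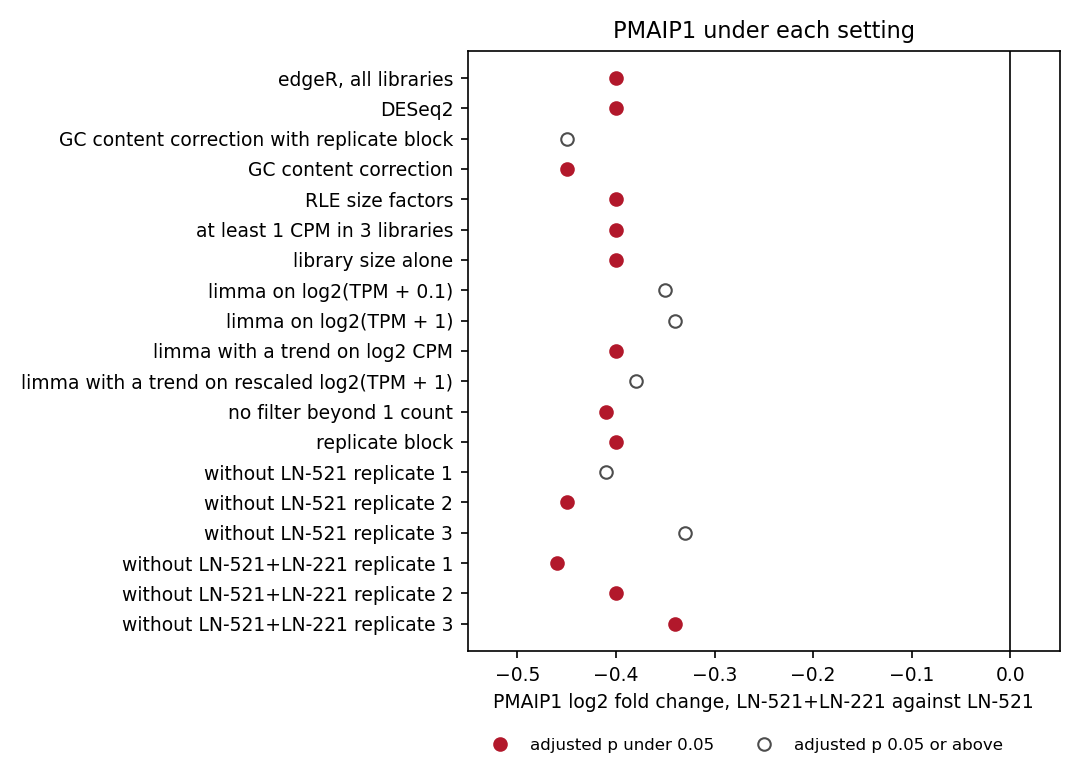
Log2 fold change of PMAIP1 (x axis) in the edgeR test on all libraries and in each of the 18 other settings (y axis), filled where the adjusted p was under 0.05. All points lie between -0.46 and -0.33, and the 6 open points are the 3 TPM settings, the GC correction with the replicate block, and the fits without LN-521 replicate 1 or replicate 3.

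Genes that mark the stem cell state and other lineages also differed between the coatings, and their part in the PMAIP1 difference was not tested. Of the 8 stem cell markers, 3 were called lower with laminin-221, NANOG (-0.73 ± 0.09, SE; edgeR adjusted p = 1.65e-04), POU5F1 (-0.36 ± 0.06, SE; edgeR adjusted p = 0.00366) and TDGF1 (-0.65 ± 0.06, SE). LIN28A was called higher (0.23 ± 0.05, SE; edgeR adjusted p = 0.00737), and the other 4 stem cell markers had positive values of 0.02 to 0.07 that did not pass. The median over the 8 was 0.035. In the neural list OTX2 and ZIC1 were called higher, in the mesoderm list KDR was called lower, and in the fibroblast list THY1 was called lower. Summed marker levels in CPM were 486 to 534 against 559 to 612 for the neural list, 185 to 216 against 140 to 161 for mesoderm, 2.29 to 3.44 against 1.90 to 2.60 for endoderm and 425 to 488 against 422 to 429 for fibroblasts. The mesoderm sum was nearly all KDR, at 180 to 212 against 135 to 157 CPM, so it is a value of 1 gene and not of a lineage. The neural sum was nearly all NES, at 398 to 435 against 408 to 449 CPM and not called, and OTX2. OTX2 was at 86.8 to 101 against 149 to 162 CPM, so the difference in this sum was mainly that of OTX2. ZIC1 was near the floor, with 9 to 27 counts per library (edgeR adjusted p = 0.0474). In the neural list PAX6, SOX1 and LHX2 were under 1 CPM in all libraries, in the mesoderm list TBXT, MIXL1, MESP1, EOMES and HAND1, in the endoderm list SOX17, FOXA2, GATA4 and GATA6, and in the fibroblast list COL3A1 and DCN. LUM had no count.

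Among the pro-survival genes, MCL1 had the smallest difference. It was at 401, 393 and 390 CPM on laminin-521 alone and at 381, 390 and 381 CPM with laminin-221. Its log2 difference was -0.04 ± 0.05 (SE; edgeR adjusted p = 0.781), and the 95% interval of the difference, -0.14 to 0.06, puts any change at a fold between 0.907 and 1.04. The groups did not overlap, though the lowest LN-521 well and the highest LN-521+LN-221 well both round to 390 CPM.

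BCL2L1 was at 45.0, 48.8 and 47.6 CPM on laminin-521 alone and at 43.2, 39.9 and 41.6 CPM with laminin-221. All 3 wells with laminin-221 were below all 3 without it, in CPM and in TPM. The log2 difference of -0.18 ± 0.07 (SE; 95% interval -0.32 to -0.04) did not pass over all genes (edgeR adjusted p = 0.200). BCL2 was at 2.57, 2.44 and 2.81 CPM against 1.59, 2.42 and 2.62 CPM. Its ranges overlapped, with LN-521+LN-221 replicate 1 the lowest library. BCL2 rested on 33 to 70 counts per library, and its log2 difference of -0.23 had a wide 95% interval of -0.67 to 0.21 (edgeR adjusted p = 0.676). Without LN-521+LN-221 replicate 1 the value was -0.05 (edgeR adjusted p = 0.970).

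The 2 effectors differed in their values. BAX was at 26.2, 30.2 and 29 CPM on laminin-521 alone and at 21.9, 23.3 and 26.7 CPM with laminin-221. The ranges overlapped because LN-521+LN-221 replicate 3 was above LN-521 replicate 1. The log2 fold change was -0.25 ± 0.09 (SE; 95% interval -0.43 to -0.06; edgeR adjusted p = 0.182). Without LN-521 replicate 1, BAX passed (-0.30, edgeR adjusted p = 0.0365, against 0.0365 to 0.530 when any 1 library was omitted), and it was then the 1 member called. BAK1 was at 19.5, 24.9 and 21.6 CPM against 20.9, 20.8 and 25.3 CPM, with no separation (0.02 ± 0.10, SE; 95% interval -0.20 to 0.24; edgeR adjusted p = 0.957). BAK1 had estimated counts that were not whole in 5 libraries, and it has 2 processed pseudogenes, BAK1P1 and BAK1P2, so its reads may be divided with other genes.

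The other 4 BH3-only genes did not pass. BCL2L11, the BIM gene, was at 31.1, 27.6 and 28.1 CPM on laminin-521 alone and at 32.3, 29.2 and 31.8 CPM with laminin-221, a log2 difference of 0.10 ± 0.08 (SE; edgeR adjusted p = 0.593). BBC3, the PUMA gene, was at 11.6, 15.5 and 12.4 CPM against 12.2, 13.1 and 11.4 CPM (-0.11 ± 0.11, SE; edgeR adjusted p = 0.729). In BBC3 1 library, LN-521 replicate 2, was above the other 5, and without it the value was 0.03 (edgeR adjusted p = 0.949).

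BID, which caspase-8 cleaves to link death receptors to mitochondria, was at 12.6, 10.3 and 9.83 CPM against 11.2, 10.2 and 11.6 CPM (0.01 ± 0.11, SE; edgeR adjusted p = 0.973). BIK had 76, 162 and 75 counts on laminin-521 alone and 84, 98 and 115 with laminin-221. LN-521 replicate 2 was again the highest library, and without it the log2 fold change of BIK was 0.49 (edgeR adjusted p = 0.163) in place of 0.09 ± 0.23 (SE; edgeR adjusted p = 0.902). The 5 members with the most GC-rich transcripts, BBC3 (69.7%), BAX (58.9%), BAK1 (58.8%), BCL2L1 (56.9%) and BIK (56.0%), all had their highest LN-521 level in CPM in replicate 2, the library with the most recovery of GC-rich transcripts. The other 5 members, at 37.2% to 49.7% GC, did not. In TPM this held for BBC3, BAK1 and BIK, but BAX was highest in replicate 3 and BCL2L1 in replicate 1. With the GC correction the log2 difference was -0.04 for BBC3, -0.20 for BAX, 0.06 for BAK1, -0.15 for BCL2L1 and 0.13 for BIK, and none of the 5 passed. Beyond this correction, the part of GC content in these values was not tested.

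**Figure D3:**
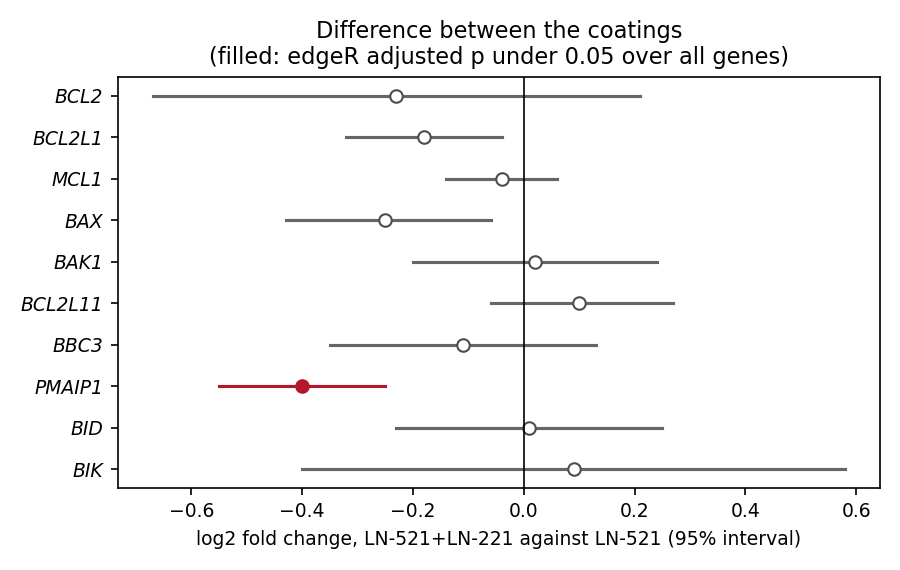
Log2 fold change of each member on LN-521+LN-221 against LN-521 (x axis) with its unadjusted 95% interval, filled where the edgeR adjusted p over all genes was under 0.05. PMAIP1 at -0.40 is the filled point, the intervals of BCL2L1 and BAX also lie below 0, and those of BCL2 and BIK are the widest.

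At an unadjusted edgeR threshold of 0.05, which 14.5% of all genes reached in either direction and 7.49% as lower, 3 of the 10 members were counted: PMAIP1, BAX and BCL2L1. All 3 were lower with laminin-221. Non-overlapping CPM were found for 3 members, PMAIP1, BCL2L1 and MCL1, each lower, where 19.9% of all genes did not overlap and 9.68% were lower. The 3 pro-survival genes all had negative values, and the 5 BH3-only genes had 2 negative and 3 positive ones.

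Ratios within a library compare members without any scaling between libraries. They are given as a description, since the pairs were picked with the levels known. The ratio of PMAIP1 to MCL1, the BH3-only protein and its pro-survival partner, was 0.552, 0.529 and 0.636 in CPM on laminin-521 alone and 0.491, 0.439 and 0.409 with laminin-221. The groups did not overlap, and they did not in TPM either, where the ratio was 1.05, 1.04 and 1.23 against 0.986, 0.874 and 0.786. The ratio of BAX to BAK1 was 1.34, 1.21 and 1.34 in CPM on laminin-521 alone and 1.05, 1.12 and 1.06 with laminin-221, again without overlap. The ratio of BAX to BCL2L1, an effector and a pro-survival gene, overlapped at 0.582, 0.618 and 0.608 against 0.506, 0.584 and 0.641. The ratio of BCL2L1 to MCL1, both pro-survival, overlapped as well, at 0.112, 0.124 and 0.122 against 0.113, 0.102 and 0.109. Of the 4 ratios computed, 2 did not overlap in CPM, and no share over other gene pairs was computed to set beside this. As MCL1 differed little (log2 fold change -0.04), the ratio of PMAIP1 to MCL1 mostly repeats the PMAIP1 difference.

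**Figure D4:**
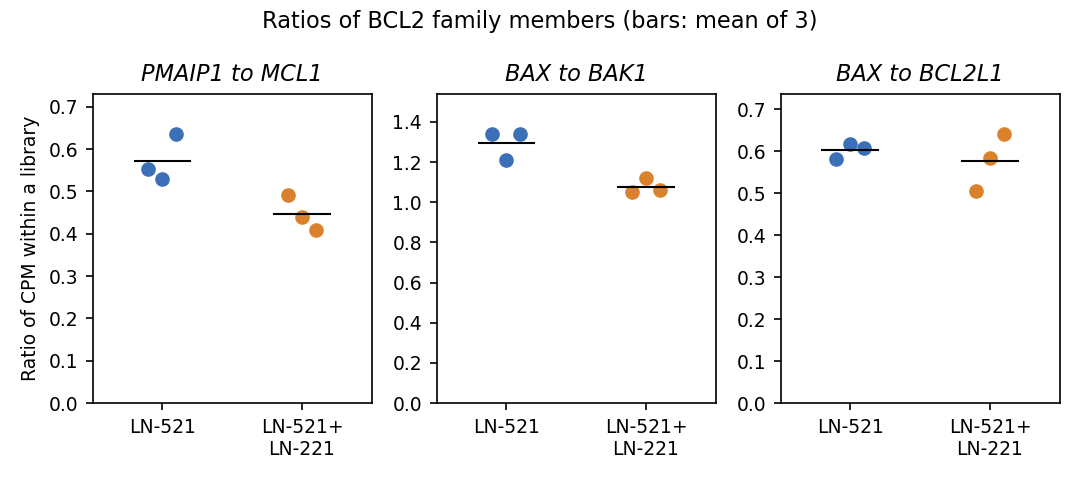
Ratios of CPM between 2 members within each library (y axis, from 0), with 1 point per well in each coating (x axis) and a bar at the mean of 3. PMAIP1 to MCL1 (means 0.572 and 0.446) and BAX to BAK1 (1.30 and 1.07) do not overlap between the coatings, and BAX to BCL2L1 (0.603 and 0.577) does.

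By role, the summed TPM of the pro-survival genes was 128, 107 and 112 on laminin-521 alone and 115, 113 and 107 with laminin-221, which overlapped. The effectors summed to 43.5, 45.8 and 47.5 TPM against 34.3, 35.8 and 42.2 TPM, which did not. The BH3-only genes summed to 141, 120 and 140 TPM against 124, 112 and 98.2 TPM, which overlapped. Summed CPM, in which the count is not divided by length, gave another picture. The effectors overlapped, at 45.7, 55.1 and 50.6 CPM against 42.7, 44.1 and 52 CPM. The length that the deposited values imply for BAX, as a percentage of its mean over libraries, averaged 93.9% without and 106% with laminin-221. The BH3-only sums did not overlap in CPM (283 ± 17.3 against 230 ± 15.7, SD, n = 3 each), but PMAIP1 carried this: the other 4 genes summed to 58.7, 59.5 and 53.4 CPM against 59.8, 56.8 and 59.7 CPM, which overlapped. The pro-survival sums did not overlap either (444 ± 4.15 against 428 ± 3.76, SD, n = 3 each), and MCL1 makes up most of them. Without MCL1 they still did not overlap, at 47.6, 51.2 and 50.4 CPM against 44.8, 42.3 and 44.3 CPM. These sums are descriptions without a test, and among single genes 9.68% were lower without overlap. As a share of the TPM of all 10 members, the pro-survival genes were at 40.9%, 39.2% and 37.5% on laminin-521 alone and at 42.1%, 43.3% and 43.3% with laminin-221. These shares did not overlap, although the pro-survival sum itself was not higher (means of 115 and 112 TPM). The effector share overlapped, at 13.9%, 16.8% and 15.9% against 12.6%, 13.7% and 17%. The BH3-only share also overlapped, at 45.2%, 44.0% and 46.6% against 45.4%, 42.9% and 39.7%.

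The wider cell death machinery was read from 4 further lists of 71 genes, of which 66 were tested. 1 gene passed in each direction, where 1.40% of all genes were called higher and 1.14% lower. CASP10, an initiator caspase recruited to death receptors, rose, and MYC, a transcription factor that promotes growth and can sensitize cells to apoptosis, fell. Both calls lay at the edge of the threshold. The median log2 fold change over the 66 genes was 0.009, against -0.001 over all genes.

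In the rest of the BCL2 family, 13 of 15 genes were tested and no gene was called (edgeR), while 2 of the 13 had an unadjusted p under 0.05, against 14.5% of all genes, and DESeq2 called 0. The 2 lay in opposite directions. BCL2L12, a family member of atypical sequence, had the smallest p, at 29.3 ± 2.67 CPM on laminin-521 alone and 24.7 ± 1.27 CPM with laminin-221 (SD, n = 3 each; -0.25 ± 0.08, SE; edgeR adjusted p = 0.160). It passed without LN-521 replicate 1 (-0.32, edgeR adjusted p = 0.0167, against 0.0167 to 0.539 when any 1 library was omitted). The other was the BH3-only gene HRK, named after its values were seen, at 5.71, 5.60 and 5.22 CPM without and 7.03, 6.68 and 6.59 CPM with laminin-221. Its groups did not overlap in CPM but did in TPM, and it did not pass (0.30 ± 0.12, SE; edgeR adjusted p = 0.274). The pro-survival gene BCL2L2 was at 21.1 and 21.2 CPM, the effector relative BOK at 18.8 and 17.8 CPM, and the BH3-only genes BAD at 9.80 and 9.86 CPM and BMF at 62.6 and 58.4 CPM. None of these 4 passed (edgeR adjusted p of 0.985, 0.760, 0.984 and 0.554).

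Of the apoptosome and caspase list, 23 of 23 genes were tested, with a median log2 fold change of 0.044. CASP10 was at 7.23, 6.73 and 5.94 CPM on laminin-521 alone and at 8.23, 9.60 and 9.76 CPM with laminin-221. The groups did not overlap, and the log2 fold change was 0.47 ± 0.12 (SE; edgeR adjusted p = 0.0486). The call was lost with DESeq2 (adjusted p = 0.0640), with library size alone (edgeR adjusted p = 0.0505), with limma on log2 CPM (adjusted p = 0.0542), in the 3 TPM settings and in 5 of the 6 fits that left out a library. Over all alternatives the adjusted p ran from 0.0161 to 0.411. CYCS, which encodes cytochrome c, was at 134 and 135 CPM, APAF1, the scaffold of the apoptosome, at 55.3 and 54.5 CPM, and its caspase CASP9 at 14.8 and 15.0 CPM. The caspase inhibitor XIAP was at 66.0 and 68.6 CPM. BIRC5, or survivin, was at 80.4 and 72.6 CPM without overlap between the coatings, yet did not pass (-0.15 ± 0.06, SE; edgeR adjusted p = 0.233).

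Of the death receptor list, 8 of 11 genes were tested, and no gene was called by edgeR or by DESeq2. The adaptor FADD had the smallest p and was the 1 of 8 with an unadjusted p under 0.05, against 14.5% of all genes, with 21.3 and 18.7 CPM (-0.19 ± 0.09, SE; edgeR adjusted p = 0.331). The ligand genes FASLG, TNFSF10 and TNF were too low to be tested.

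Among 22 regulators of the members, MYC was at 26.4, 33.9 and 40.5 CPM on laminin-521 alone and at 23.5, 20.0 and 23.1 CPM with laminin-221. It was lower in every well with laminin-221, and the 3 LN-521 wells differed widely from each other. The log2 fold change was -0.60 ± 0.14 (SE; edgeR adjusted p = 0.0498). It passed with the replicate block (edgeR adjusted p = 8.65e-04), and did not pass with RLE size factors (edgeR adjusted p = 0.0513), with the GC correction (edgeR adjusted p = 0.115), with limma on log2 CPM or TPM, or in 5 of the 6 fits that left out a library. MDM2, an E3 ubiquitin ligase, was at 148 and 153 CPM (edgeR adjusted p = 0.780).

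**Figure D5:**
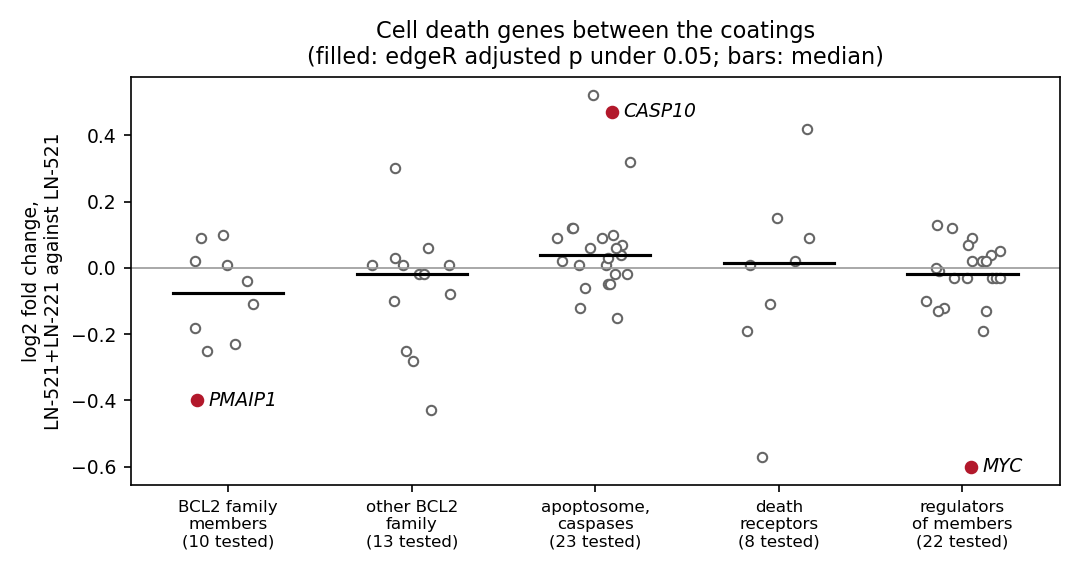
Log2 fold change on LN-521+LN-221 against LN-521 (y axis) for each tested gene of the members and of 4 further lists (x axis), with a bar at the median and filled points where the edgeR adjusted p was under 0.05. The medians lie between -0.074 and 0.044, and the 3 filled points are PMAIP1 (-0.40), CASP10 (0.47) and MYC (-0.60).

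Some member values carry a limit of counting. The libraries came from a stranded kit, but whether strand was used in counting is not given in the sources used here. BCL2L1 shares 1424 exon bases with ABALON on the opposite strand, which had 2 to 6 counts per library, and BCL2L11 shares 727 with MIR4435-2HG, which had 17 to 42. The tables hold gene totals, so forms of opposite function made from 1 gene, such as the long and short forms of BCL2L1 and MCL1, could not be told apart.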

How the data were processed

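Total RNA libraries from 6 wells of H1 cells were analysed. The submitters' processing notes name cutadapt, STAR 2.5.2b, RSEM 1.2.31 and hg38. The gene annotation is not given in the sources used here. The authors deposited estimated counts per Ensembl gene, of which 6.08% to 6.67% per library are not whole, and TPM values. Symbols came from a table that held 93.1% of the IDs, and positions and GC content from GENCODE 29 (GRCh38).

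Counts were rounded, filtered with filterByExpr (minimum count 10), scaled by TMM and tested with edgeR 4.0.16 in R 4.3.3 (robust quasi-likelihood fit, no block), with Benjamini-Hochberg adjustment over all 17608 genes and a threshold of 0.05. SE is the absolute log2 fold change divided by the square root of F, and intervals use its t distribution. Alternatives were other size factors and filters, DESeq2 1.42.0, limma 3.58.1 on TPM (at least 1 TPM in 3 libraries) or CPM, a replicate block, a lowess GC correction (span 0.3) and leaving out each library. The 2 settings with a variance trend were chosen after seeing the data. The edgeR fits (with and without the block), DESeq2 and limma with a trend were tested on simulated data.

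The members and lists were chosen with earlier results of these data known. Named are all 10 members, list genes that passed or else had the smallest p of their list, 10 of 12 fixed list genes, POU5F1 and NANOG. The other 2 are not reported here. HRK, the other named lineage markers and genes given only as undetected, untested or overlapping were added.

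No pair of replicates agreed within sampling noise (chi-square per degree of freedom 2.85 to 15.6).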

Additional observations from a re-analysis of the deposited data

How the results depend on the processing

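The member count of 1 (PMAIP1) was 0 with the GC correction and replicate block and in the 3 TPM settings, and 0 to 1 when a library was left out (without LN-521 replicate 1 the 1 member was BAX). All genes called numbered 446, and 929 with the GC correction, 1016 with that and the block, 718 without a filter, 33 and 16 with limma on log2(TPM + 1) and log2(TPM + 0.1), 108 with rescaled TPM and a trend, and 194 (without LN-521+LN-221 replicate 3) to 1179 (without LN-521 replicate 1) when a library was left out. The share of calls that were higher was 55.2%, 49.0% with the GC correction, 81.8% with log2(TPM + 1), 66.7% with rescaled TPM and 52.1% with library size alone. The apoptosome and caspase count of 1 (CASP10) was 0 with DESeq2, with library size alone, in the 3 TPM settings and with limma on log2 CPM, and 0 to 1 with a library left out. The regulator count of 1 (MYC) was 0 with RLE size factors, in the 3 TPM settings and with limma on log2 CPM, 2 with the GC correction and block (FOXO3 and MYC), and 0 to 3 with a library left out. With the GC correction alone the 1 regulator was FOXO3 and not MYC. The other BCL2 family count of 0 ranged from 0 to 1, and the death receptor count stayed 0.

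Deviations of same-numbered wells correlated at 0.0448, -0.0250 and 0.0188, and those of wells with other numbers at -0.0603 to 0.0477. With 3 wells per coating, these values cannot decide whether the replicate numbers pair the wells. The replicate block alone gave 646 calls and moved no member across the threshold (PMAIP1 -0.40). PMAIP1 kept its direction in all 18 alternatives. BCL2 fell under the TPM filter and has no TPM result.

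Uncalled genes near 0 changed sign. With log2(TPM + 1) and log2(TPM + 0.1), BID was -0.05 in both, XIAP -0.05 and CYCS -0.01, and with rescaled TPM BID was -0.08, XIAP -0.09, CYCS -0.05 and BCL2L2 -0.01. With the GC correction, with or without the block, CYCS was -0.02. Without a filter BCL2L2 was -0.0034 and BAD -0.0013. With a library left out the ranges were -0.08 to 0.12 for BAK1, -0.19 to 0.03 for BBC3, -0.05 to 0.13 for BID, -0.09 to 0.49 for BIK, -0.00047 to 0.12 for MDM2, -0.04 to 0.01 for APAF1, -0.07 to 0.09 for CASP9, -0.06 to 0.09 for CYCS, -0.05 to 0.06 for BCL2L2 and -0.05 to 0.09 for BAD. The cause was not tested. Among settings that used all libraries, 110 member results kept direction and side of the threshold, 4 lost the threshold and 3 changed sign.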

Other observations

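The length that the deposited values imply for a transcript, the estimated count divided by TPM and scaled within each library, varied widely for some members and little for others. As a percentage of the gene's own mean, it ran from 52.8% to 164% for BCL2, from 84.1% to 113% for BCL2L11, from 84.9% to 115% for BID and from 88.5% to 113% for BAX. For PMAIP1 it stayed between 98.9% and 101%, and for BIK between 99.5% and 100%. BCL2 was therefore at 0.24 TPM in LN-521+LN-221 replicate 1 and 1.08 TPM in replicate 2 of the same coating, while its CPM were 1.59 and 2.42. For BAX the log2 fold change was -0.25 by counts and -0.38 on log2(TPM + 1), and the LN-521 wells lay above the LN-521+LN-221 wells without overlap in TPM but not in CPM. Which transcripts these lengths stand for was not analysed here.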
